A study of Mus musculus with 18 samples.

Results

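The small proline-rich genes described here are Sprr1a, Sprr1b, Sprr2f, Sprr2g, Sprr2h, Sprr2k and Sprr3, 7 of the 14 Sprr symbols that the array carries. Their probes were found by matching each probe's accession to the gene symbol, which gave 1 probe for each of the 7 genes, 7 probes among 39429. The genes were chosen by their family name and by measured values of these same arrays, their crush and Cre contrasts and their place beside the cornea keratin Krt12. The comparisons below therefore say where each gene stands in the fit over all genes and do not count as independent evidence of its direction. RNA of whole mouse retina was labelled with Cy5 and hybridised with a universal mouse reference RNA in Cy3, at 3 days after the optic nerve had been crushed. In all mice both alleles of DLK (the kinase gene Map3k12) were floxed, and all received tamoxifen when 10 to 12 weeks old. Cre-positive mice had in addition a Cre-ERT transgene, a recombinase that tamoxifen activates, under the broadly active CAG promoter. Cre-negative mice were littermates that lacked it.

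The groups were Cre-positive crushed (5 arrays), Cre-positive uncrushed (5 arrays), Cre-negative crushed (3 arrays) and Cre-negative uncrushed (4 arrays). Deletion was induced throughout the body and left a small amount of DLK protein that varied between animals, per the labels. The uncrushed eye served as the control. The labels tie no crushed eye to an uncrushed eye of the same animal and do not say whether the arrays of a group came from separate animals, so the p-values measure only the spread between these samples. A further Cre-negative array, called uncrushed by its title and its treatment label but crushed by its description, was kept out of every group.

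Small proline-rich proteins are short, proline-rich cross-linking substrates of transglutaminase. In skin and other stratified epithelia they are built into the cornified envelope, the protein shell of the outermost cells, and their genes lie together in the epidermal differentiation complex. Sprr1a is also known from nerve injury: injured sensory and motor neurons switch it on, and it is counted among the regeneration-associated genes. The cornea bears a stratified epithelium marked by the keratin Krt12, so a retina dissected with some cornea attached could bring in Sprr RNA of its own, and each array was therefore set against its Krt12 value. In RefSeq's order of genes on chromosome 3, Sprr2f, Sprr2g and Sprr2h are neighbours, and Sprr2k, Sprr1b, Sprr3 and Sprr1a follow each other farther along the same cluster. RefSeq lists Sprr2g as a transcribed pseudogene and the other 6 genes as protein-coding.

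Of these genes, Sprr1a and Sprr2g rose after crush in Cre-negative retinas. The crushed level of Sprr1a was 1.13 times the uncrushed level in Cre-positive retinas, which did not pass the test, and 5.21 times in Cre-negative retinas. The size of the latter also depends on how the signals are processed. The log2 difference was 2.38 here, 2.39 without background subtraction and 3.12 from the scanner's processed signals, which differ in background subtraction and dye normalization. The change of Sprr2g likewise passed the test in Cre-negative and not in Cre-positive retinas. Its uncrushed level was close to background, and the size of its change depends on how the signals are processed. Sprr1b passed the filter on dim probes and the test in no comparison. Sprr2f, Sprr2h, Sprr2k and Sprr3 did not pass the filter, which asked for a Cy5 signal well above background on at least 3 of the 17 arrays. Values are log2 ratios of Cy5 (retina) over Cy3 (reference), so a difference of 1 is a doubling of the ratio, and a probe's values can be compared between arrays but not with those of another probe. Adjusted p-values come from limma and are adjusted over all 25356 genes tested. In bulk retina, a lower value from fewer cells of a type and one from less RNA per cell cannot be told apart.

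Sprr1a was well above background on all 17 arrays. In Cre-positive crushed retinas its log2 ratio was -2.65, -2.95, -2.49, -2.58 and -2.40. In Cre-positive uncrushed retinas it was -2.89, -2.91, -2.96, -2.02 and -3.17. In Cre-negative crushed retinas it was -0.78, -0.77 and -1.11, and in Cre-negative uncrushed retinas -3.19, -3.34, -3.48 and -3.05. The 3 Cre-negative crushed arrays stood above the other 14, the lowest of them 0.92 above the highest of the rest, which was Cre-positive uncrushed replicate 4. The share of all genes with such an order is not given here. The same order held in the scanner's processed Cy5 signal, where Cre-negative crushed retinas gave 1658, 1549 and 1081 intensity units and Cre-negative uncrushed retinas 192.5, 139.5, 155.8 and 193.6.

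The mean log2 ratio of Sprr1a was -2.61 ± 0.21 in Cre-positive crushed retinas (SD, n = 5), -2.79 ± 0.44 in Cre-positive uncrushed retinas (n = 5), -0.89 ± 0.19 in Cre-negative crushed retinas (n = 3) and -3.26 ± 0.19 among Cre-negative uncrushed retinas (n = 4). The order of the levels was therefore Cre-negative crushed, Cre-positive crushed, Cre-positive uncrushed and Cre-negative uncrushed. The values of both Cre-positive groups overlapped, as did those of both uncrushed groups. The crush response, crushed minus uncrushed, was 0.18 in Cre-positive retinas (SE 0.16, 95% interval -0.17 to 0.52, adjusted p 0.77). In Cre-negative retinas it was 2.38 (SE 0.20, interval 1.96 to 2.80, adjusted p 5.3e-07). The difference between the responses, Cre-positive minus Cre-negative, was -2.21 (SE 0.26, adjusted p 0.00013). Among crushed retinas Sprr1a was 0.302 times as high in Cre-positive as in Cre-negative mice, a log2 difference of -1.73 (SE 0.19, adjusted p 2.6e-05). These 3 calls end if the array of disagreeing labels is counted as uncrushed, as its title and treatment label have it. The Cre-negative response is then 1.80 (adjusted p 0.13), the difference -1.62 (adjusted p 0.58) and the Cre effect in crushed retinas -1.73 (adjusted p 0.12). Counted as crushed, as its description has it, that array makes the Cre-negative response 2.52 (adjusted p 8.5e-08).

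In uncrushed retinas the mean of Sprr1a was higher in Cre-positive than in Cre-negative mice by 0.48 (SE 0.17), which did not pass the test over all genes (adjusted p 0.88, unadjusted limma p 0.014). Without Cre-positive uncrushed replicate 4 that difference was 0.29 and the Cre-positive crush response was 0.37 (interval 0.13 to 0.60, adjusted p 0.24). The arrays lay on 5 slides. The Cre-positive response of Sprr1a within 4 of them was -0.04, 0.48, 0.26 and 0.22, the first of these from the slide that held replicate 4. The Cre-negative response could be read within 3 slides, each holding 1 crushed and 1 uncrushed array of that genotype, and was 2.23, 2.27 and 2.71. The Cre effect in crushed retinas was -1.30 and -1.86 within the 2 slides that held both genotypes.

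Sprr2g was also highest in Cre-negative crushed retinas. Its log2 ratio was -2.31, -2.16, -2.18, -2.28 and -2.18 in Cre-positive crushed retinas and -2.19, -2.50, -2.47, -2.48 and -2.41 in Cre-positive uncrushed retinas. It was -0.42, -0.75 and -0.68 in Cre-negative crushed retinas and -2.30, -2.41, -2.40 and -2.42 in Cre-negative uncrushed retinas. All 3 Cre-negative crushed arrays lay above the other 14, by at least 1.41, and here too the share of all genes doing so is not given. The Cy5 signal was well above background on 2 of 5 Cre-positive crushed and 0 of 5 Cre-positive uncrushed arrays. Among Cre-negative arrays it was so on 3 of 3 crushed and 1 of 4 uncrushed. The group in which the gene was high thus gave 3 of these 6 arrays, and the level elsewhere was close to background. The processed Cy5 signal was 511.2, 356.1 and 366.6 intensity units in Cre-negative crushed retinas and 9.24 to 44.7 in Cre-negative uncrushed retinas.

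Sprr2g had a Cre-positive crush response of 0.19 (SE 0.07, interval 0.04 to 0.33, adjusted p 0.35). Only 2 of 5 Cre-positive crushed arrays and no Cre-positive uncrushed array were well above background, so the Cy5 signals allow no fold here. In Cre-negative retinas the response was 1.76 (SE 0.08, interval 1.59 to 1.94, adjusted p 2.2e-10). The responses differed by -1.58 (SE 0.11, adjusted p 1.3e-07), and the Cre effect in crushed retinas was -1.61 (SE 0.08, adjusted p 4.9e-10). In uncrushed retinas, where only 1 Cre-negative array was well above background, the signals allow no fold between genotypes. With the array of disagreeing labels counted as uncrushed, the difference between the responses was -1.21 and no longer called (adjusted p 0.53). Over all 33 alternatives the Cre-negative response of Sprr2g ran from 1.40 to 4.42, with a largest adjusted p of 0.047. Its Cre effect in crushed retinas ran from -3.69 to -1.51, with a largest adjusted p of 0.036, so both kept their calls narrowly at the weakest. Within slides the Cre-positive response was 0.25, 0.01, 0.18 and 0.25 and the Cre-negative response 1.72, 2.0 and 1.65. The offset of 50 added in the background correction shrinks the changes of dim probes. The scanner's processed signals differ both in background subtraction and in dye normalization. With them the response of Sprr2g was 0.99 in Cre-positive retinas (adjusted p 0.44) and 4.42 in Cre-negative retinas (adjusted p 6.4e-05). The size of both therefore depends on the processing, and the 2 steps cannot be told apart here. The Cre-negative response of Sprr1a was then 3.12 (adjusted p 1.5e-05). Sprr2 genes are close copies of each other, and the probe sequences were not used here, so a signal shared with another Sprr2 transcript cannot be told apart from Sprr2g itself.

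**Figure D1:**
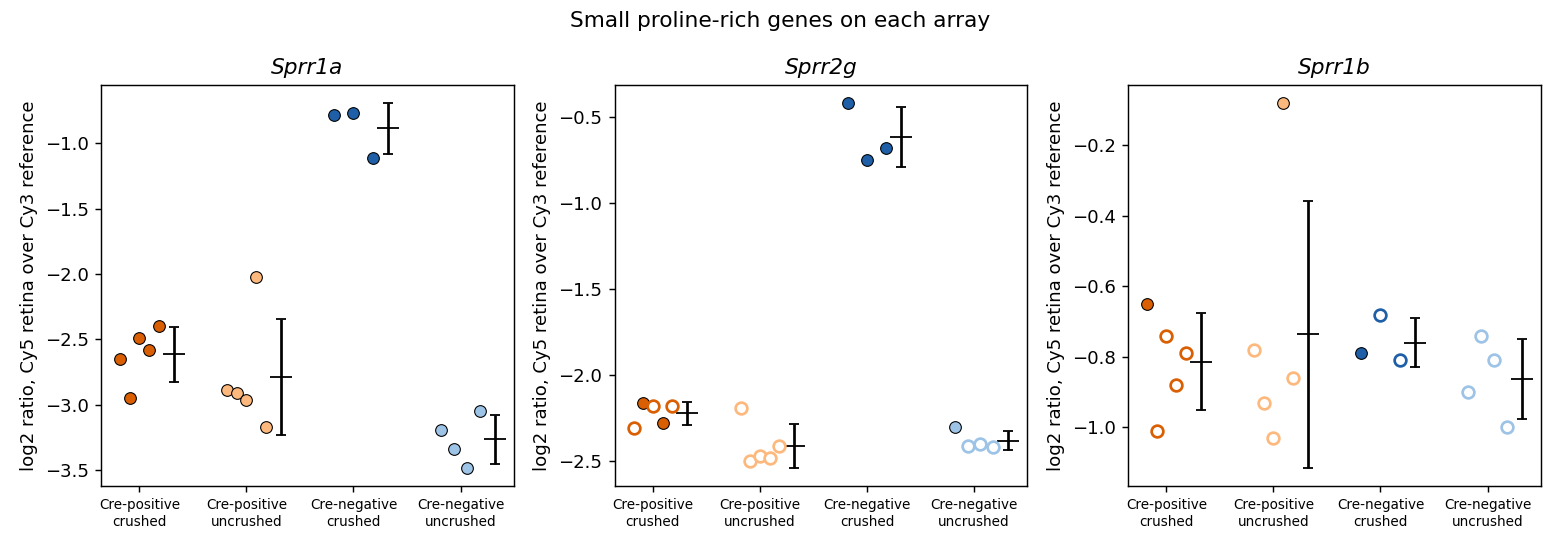
Log2 ratio of Cy5 retina over Cy3 reference (vertical axis) for Sprr1a, Sprr2g and Sprr1b on each of the 17 arrays, by group; filled points are well above background in Cy5, open points are not, and bars show the mean and SD of a group. For Sprr1a and Sprr2g the 3 Cre-negative crushed arrays stand above the other 14, and for Sprr1b Cre-positive uncrushed replicate 4 stands alone at -0.08.

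Of the 7 genes, 3 passed the filter. Of these 3, Sprr1a and Sprr2g differed past the threshold (adjusted p under 0.05), and both were called in the Cre-negative crush response, the difference between the responses and the Cre effect in crushed retinas. Of all genes tested, 0.753% were called in either direction in the Cre-positive crush response, 2.15% in the Cre-negative crush response, 0.418% in the difference between the responses and 1.18% in the Cre effect in crushed retinas. In the downward direction alone the Cre effect in crushed retinas held 0.556% of all genes. In the Cre effect in uncrushed retinas, 0.0118% of all genes were called and none of the 3. Non-overlap with the uncrushed arrays in the higher direction was met by 8.8% of all genes in the Cre-negative crush response. The share of all genes whose Cre-negative crushed arrays stood above all 14 other arrays is not given here. Since these contrasts chose the genes, the counts are given as a description.

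Sprr1b, the other member of the Sprr1 subfamily, gave no such pattern. Its log2 ratio was -0.65, -1.01, -0.74, -0.88 and -0.79 in Cre-positive crushed retinas and -0.78, -0.93, -1.03, -0.08 and -0.86 in Cre-positive uncrushed retinas. It was -0.79, -0.68 and -0.81 in Cre-negative crushed retinas and -0.90, -0.74, -0.81 and -1.0 in Cre-negative uncrushed retinas. All 4 groups overlapped, and the single high value belonged to Cre-positive uncrushed replicate 4, where the Cy5 signal was 121.7 intensity units. Only 3 of 17 arrays were well above background: that one, Cre-positive crushed replicate 1 and Cre-negative crushed replicate 1. The crush response was -0.08 in Cre-positive retinas (interval -0.35 to 0.20, adjusted p 0.89) and 0.11 in Cre-negative retinas (interval -0.22 to 0.44, adjusted p 0.84). In Cre-negative retinas 1 of 3 crushed arrays and no uncrushed array was well above background, so the Cy5 signals allow no fold. The offset compresses the scale for a probe this dim, and with the processed signals all 5 contrast values of Sprr1b again missed the threshold.

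The remaining genes of the set stayed near background in Cy5. Sprr2f was well above background on 2 of 17 arrays, Cre-positive uncrushed replicate 1 and Cre-negative crushed replicate 1, with log2 ratios of -0.15 to 0.13. Sprr2h, Sprr2k and Sprr3, the last a gene of oesophageal and other internal epithelia, were well above background on 0 of 17 arrays. Their log2 ratios ran between -0.67 and -0.16 for Sprr2h, -0.52 and 0.32 for Sprr2k and -0.20 and 0.05 for Sprr3. The Sprr2h probe gave Cy3 signal well above background on all 17 arrays (89.4 to 149.7 intensity units), so this probe did detect RNA in the reference. Sprr3 had none in Cy3 either, and its probe therefore gave no positive reading in this study. In a fit with no filter, over 32992 genes, the 20 contrast values of these 4 genes lay between -0.28 and 0.30 with a smallest adjusted p of 0.12.

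**Figure D2:**
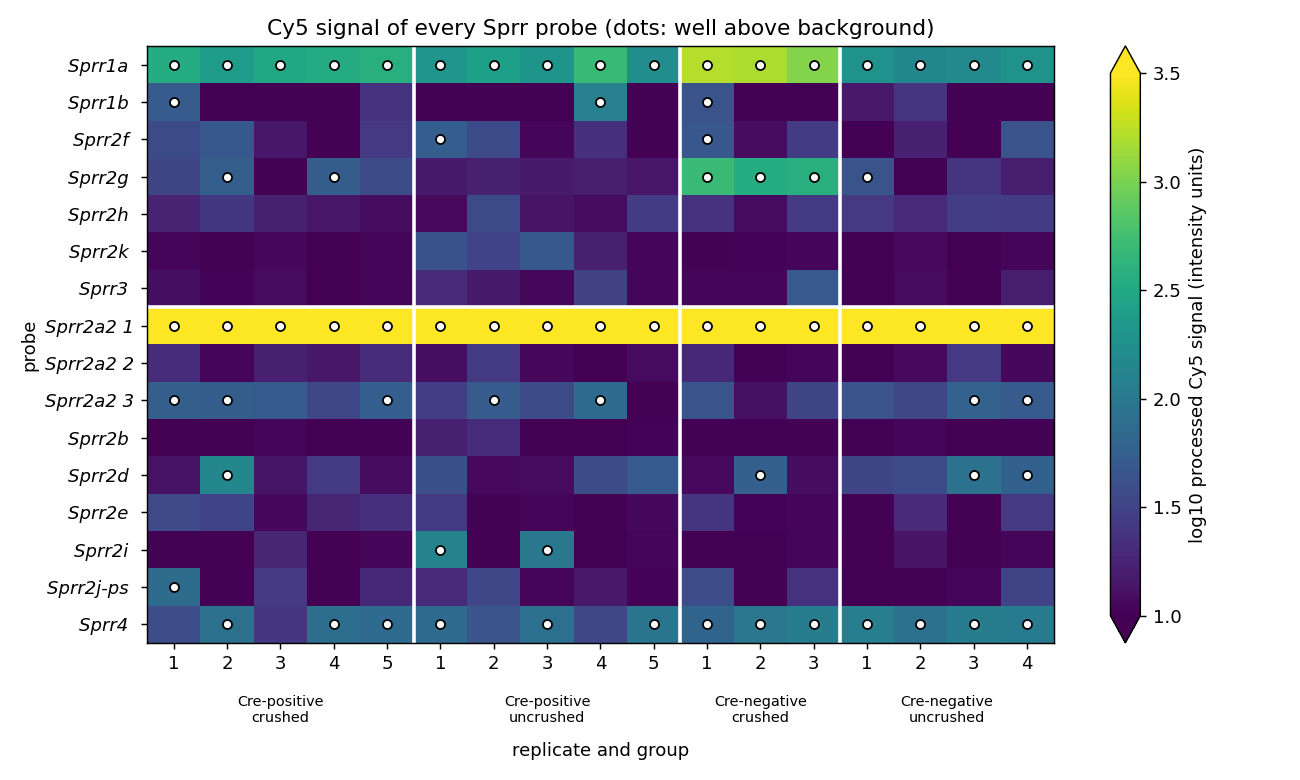
Processed Cy5 signal (colour, log10 intensity units, values outside the scale take its end colours) of all 16 Sprr probes (rows, the 7 genes described here above the line) on the 17 arrays (columns, by group and replicate); white dots mark arrays on which the probe was well above background. Sprr1a has a dot on every array, Sprr2g on the 3 Cre-negative crushed arrays and 3 others, and Sprr2h, Sprr2k and Sprr3 on none.

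The other 7 Sprr symbols on the array were read by 9 probes. Of these genes Sprr2a2, Sprr2d and Sprr4 passed the filter and none passed the test in any contrast. Sprr4 was well above background on 13 of 17 arrays, and its crush response was 0.04 in Cre-positive retinas (SE 0.06) and -0.01 in Cre-negative retinas (SE 0.07). The Sprr2a2 probes disagreed. The brightest gave 200900 to 249600 units in Cy5 and 179500 to 231100 in Cy3 on every array, while another was well above background on 7 arrays and the third on none. Sprr2b and Sprr2e were well above background on 0 of 17 arrays, Sprr2i on 2 and Sprr2j-ps on 1.

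Krt12 was far higher on some arrays than on others. Of its 2 probes the brighter is used here, whose Cy3 signal was well above background on only 1 of 17 arrays. The dimmer was well above background in Cy5 on 3 arrays, Cre-positive uncrushed replicates 4 and 2 and Cre-positive crushed replicate 4. On Cre-negative crushed replicate 2 the dimmer read 0.24 and was not. The log2 ratio of the brighter probe was 0.49, 0.62, 0.71, 2.09 and 0.28 in Cre-positive crushed retinas and 0.28, 3.50, 0.39, 5.54 and 0.06 in Cre-positive uncrushed retinas. It was 0.42, 1.47 and 0.66 in Cre-negative crushed retinas and 0.41, 0.47, 0.50 and 0.66 in Cre-negative uncrushed retinas. Cre-positive uncrushed replicates 4 and 2 were the highest of all, with processed Cy5 signals of 54950 and 2802 intensity units against a lowest value of 44.6. Of the 19 tested cornea and conjunctiva genes, 17 had their highest value on replicate 4. Their summed Cy5 signal was 12870 to 17150 in Cre-positive crushed, 12710 to 134500 in Cre-positive uncrushed, 14180 to 16750 in Cre-negative crushed and 13460 to 16690 intensity units in Cre-negative uncrushed retinas. None of the 19 passed the test in any contrast with all 17 arrays, and 0 or 1 in each had an unadjusted limma p under 0.05. With at most 2.15% of all genes called in a contrast, a count of 0 among 19 is near that share. Without Cre-positive uncrushed replicate 4, 1 of the 19 was called, the conjunctival keratin Krt13, with a Cre-negative crush response of 0.31 (adjusted p 0.039, against 0.57 with all arrays). It was called also without replicates 4 and 2.

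Set against Krt12, 2 of the 3 high Sprr1a values of Cre-negative crushed retinas lay at low Krt12. The arrays with Sprr1a at -0.78 and -1.11 had Krt12 at 0.42 and 0.66, within the range of the 4 Cre-negative uncrushed arrays (0.41 to 0.66). The array at -0.77, the highest Sprr1a value of all, had Krt12 at 1.47, the 4th highest of the 17. On the array with the most Krt12, by contrast, Sprr1a was -2.02 and Sprr1b -0.08, each the highest value of its group, while Sprr2g was -2.48 and not well above background. On the array with the second most Krt12, Sprr1a was -2.91 and Sprr1b -0.93, both within the range of the rest of the group, and Sprr2g was -2.50, the lowest of the group.

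**Figure D3:**
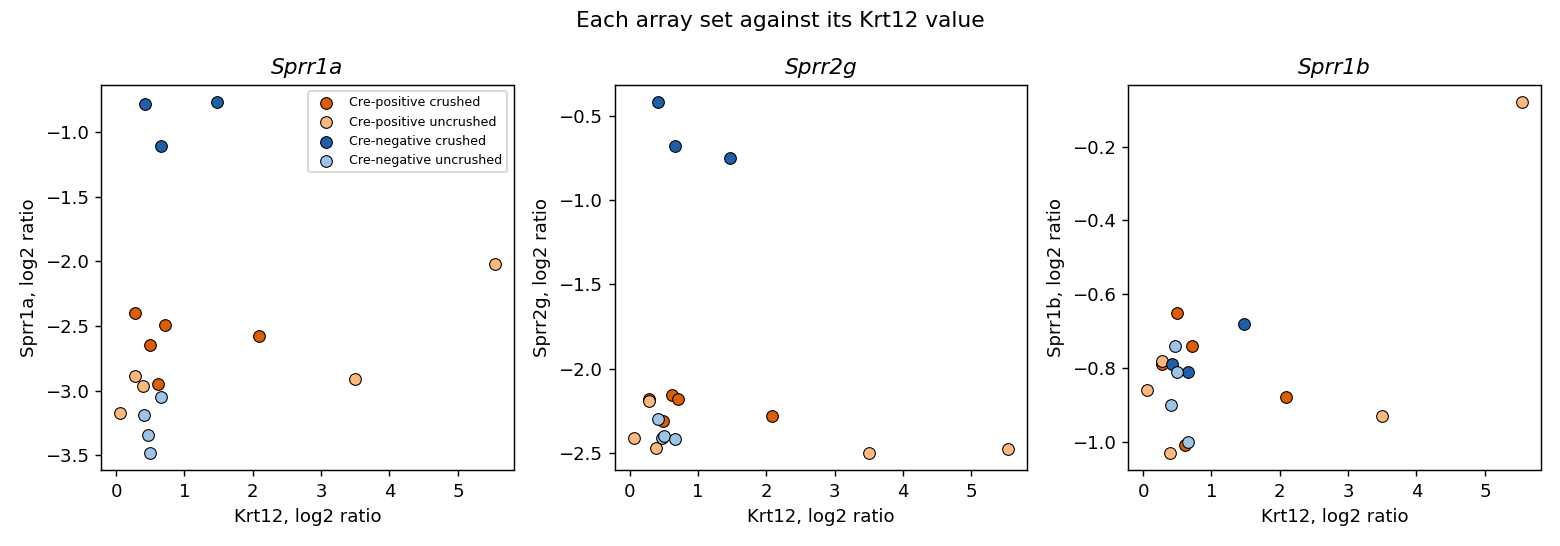
Log2 ratio of Sprr1a, Sprr2g and Sprr1b (vertical axes) against that of Krt12 (horizontal axis) on the 17 arrays, coloured by group. The 3 Cre-negative crushed arrays sit at the top for Sprr1a and Sprr2g with Krt12 between 0.42 and 1.47, and the array with Krt12 at 5.54 sits at the top for Sprr1b only.

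Across the 17 arrays, with the group means removed, the relation to Krt12 was computed for all 7 genes, with p-values from 100000 two-sided permutations within groups adjusted over the 7. Pearson's r was 0.69 for Sprr1a (p 0.054, adjusted 0.19), and Spearman's rho was 0.40 (p 0.16, adjusted 0.37). For Sprr1b r was 0.64 (permutation p 0.14, adjusted 0.25; rho 0.24, p 0.44, adjusted 0.62), and for Sprr2g it was -0.45 (permutation p 0.14, adjusted 0.25; rho -0.53, p 0.051, adjusted 0.18). None passed after adjustment. For Sprr2f, Sprr2h, Sprr2k and Sprr3 r was 0.37, 0.22, -0.11 and -0.42 (permutation p 0.19, 0.36, 0.82 and 0.039, adjusted 0.27, 0.42, 0.82 and 0.19), with rho 0.30, 0.17, -0.14 and -0.48 (permutation p 0.30, 0.54, 0.65 and 0.027). Without Cre-positive uncrushed replicates 4 and 2, r was 0.13 for Sprr1a and -0.15 for Sprr1b, so both relations rested on those arrays, and -0.42 for Sprr2g. On the processed signals r was 0.52 for Sprr1a, 0.13 for Sprr1b and -0.06 for Sprr2g (permutation p 0.14, 0.91 and 0.75, each 0.92 after adjustment). The relations of Sprr1b and Sprr2g thus also depended on how the signals were processed.

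With Krt12 as a covariate, the Cre-positive crush response of Sprr1a was 0.33 (interval 0.06 to 0.61, adjusted p 0.54), and without replicates 4 and 2 it was 0.39 (interval 0.13 to 0.65, adjusted p 0.36). The Cre-negative crush response with the covariate was 2.33 for Sprr1a (interval 2.02 to 2.65, adjusted p 2.8e-08) and 1.78 for Sprr2g (interval 1.61 to 1.94, adjusted p 2.5e-10). The responses of Sprr1a then differed between genotypes by -2.0 (adjusted p 3.2e-05) and those of Sprr2g by -1.63 (adjusted p 1.7e-07). The Cre-negative responses of both genes and the differences between genotypes kept their calls with Krt12 in the fit. Mean Krt12 differed by only 0.34 between the Cre-negative groups, so the covariate had little room to move the Cre-negative responses. Replicates 4 and 2 are both Cre-positive uncrushed, so leaving them out cannot change those responses. Whether cornea tissue contributed to the Cre-negative responses was not tested by these fits. The Cre effect on Sprr1a in uncrushed retinas, 0.48 without the covariate, was 0.27 with it (adjusted p 0.77) and 0.26 without replicates 4 and 2 (adjusted p 0.71). The 3 remaining Cre-positive uncrushed arrays averaged -3.01 ± 0.15 (SD).

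**Figure D4:**
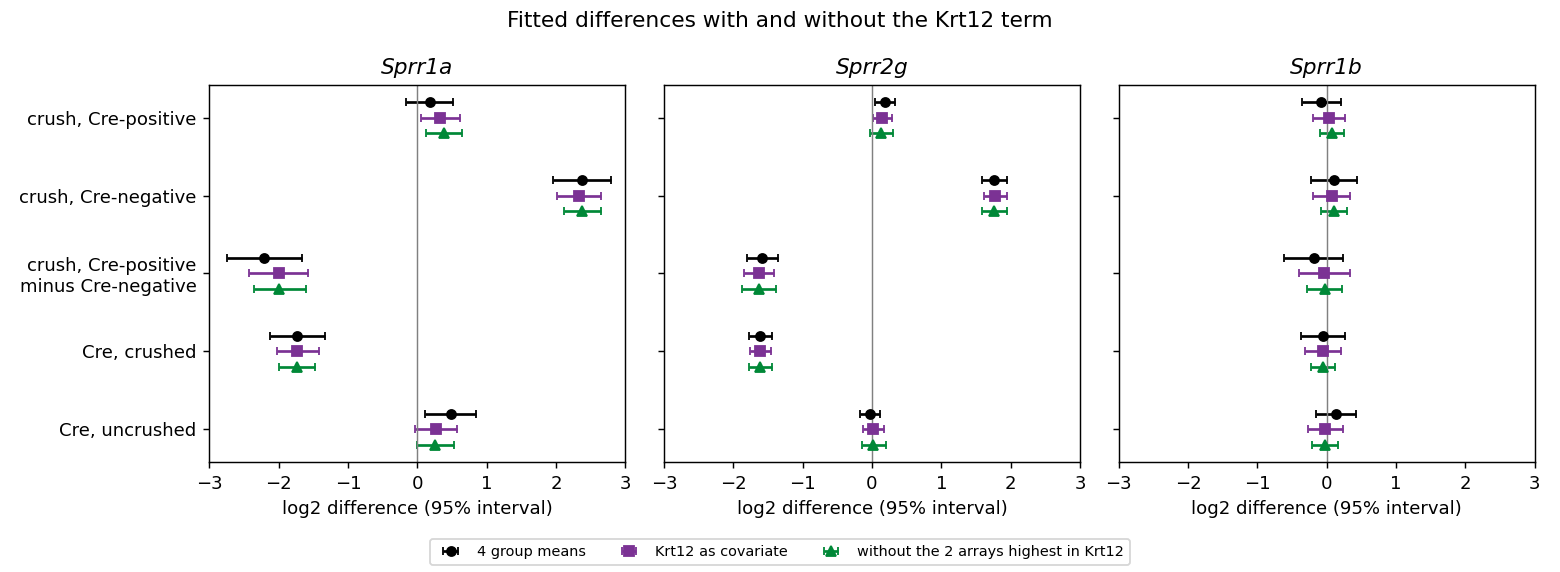
Fitted log2 differences with 95% intervals (horizontal axis) for Sprr1a, Sprr2g and Sprr1b in the 5 contrasts (rows), from the 4 group means (black circles), with Krt12 as a covariate (purple squares) and without the 2 arrays highest in Krt12 (green triangles). For Sprr1a the Cre-positive crush response is 0.18, 0.33 and 0.39 and the Cre-negative one 2.38, 2.33 and 2.38 in the 3 fits. The 2 arrays left out are both Cre-positive uncrushed, so the Cre-negative value could not change in the last fit.

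Genes that share the epithelial role of the Sprr family gave no call. Of 30 genes of the cornified envelope and the epidermal differentiation complex other than Sprr genes, 29 were on the array and 19 could be tested. None passed the test in any of the 5 contrasts, in each of which 0 to 2 had an unadjusted limma p under 0.05. At most 2.15% of all genes were called in a contrast, so a count of 0 among 19 is near that share. The median change of the 19 was -0.05 in the Cre-positive and 0.02 in the Cre-negative crush response, where the median over all genes was 3e-04 and 0.0015. Without Cre-positive uncrushed replicate 4 the Cre-positive median was 0.03. In the Cre-negative response 10 of the 19 lay above 0 and 9 below it, between -0.20 and 0.27. The values of Lor, the major envelope protein loricrin, were 0.12 in Cre-positive (SE 0.12, adjusted p 0.79) and -0.20 in Cre-negative retinas (SE 0.15, adjusted p 0.63). The mean of the 19 log2 ratios was 0.82 on Cre-positive uncrushed replicate 4 and -0.08 to 0.11 on the other arrays of that group. It stayed between -0.13 and 0.01 on Cre-negative crushed arrays, where Sprr1a was highest.

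Many genes known from axon regeneration rose. Of 29 tested, without any Sprr gene, 9 rose after crush in Cre-positive retinas (median 0.24, against 0.667% of all genes rising), and 14 rose and 1 fell in Cre-negative retinas (median 0.44, against 1.34% rising and 0.808% falling). Without Cre-positive uncrushed replicate 4 the Cre-positive count was 8 (median 0.16), and without replicates 4 and 2 it was 7 (median 0.14). Sox11, a transcription factor of developing neurons, rose by 1.13 in Cre-positive retinas (SE 0.10, adjusted p 1.4e-05) and 2.93 in Cre-negative retinas (SE 0.12, adjusted p 3.3e-11). Atf3, an injury-induced transcription factor, rose by 0.90 in Cre-positive (SE 0.09, adjusted p 4.1e-05) and 1.99 in Cre-negative retinas (SE 0.11, adjusted p 1.2e-09). Ecel1, an endopeptidase induced in damaged neurons, rose by 2.08 in Cre-positive (SE 0.13, adjusted p 2.7e-07) and 3.47 in Cre-negative retinas (SE 0.16, adjusted p 2.2e-10). The difference between the responses, Cre-positive minus Cre-negative, was negative and past the threshold for 7 of the 29, against 0.284% of all genes. Sox11 was among them at -1.80 (adjusted p 2.8e-06), as was the cytokine receptor gene Tnfrsf12a at -1.37 (adjusted p 0.00018).

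Ganglion cell markers moved the other way on the same arrays. After crush 3 of 11 tested fell in Cre-positive retinas (median -0.27, against 0.0868% of all genes falling) and 8 of 11 in Cre-negative retinas (median -0.62, against 0.808%). Without Cre-positive uncrushed replicate 4 the Cre-positive count was 2 of 11. Rbpms2, an RNA-binding protein of ganglion cells, fell by 0.27 on the log2 scale in Cre-positive retinas (adjusted p 0.021) and fell by 1.69 in Cre-negative retinas (adjusted p 3.3e-11). The summed Cy5 signal of the 11 was 146400 to 175400 in Cre-positive crushed, 184500 to 215700 in Cre-positive uncrushed, 91060 to 106200 in Cre-negative crushed and 171800 to 201600 intensity units in Cre-negative uncrushed retinas. The part of this change in the Sprr1a values was not tested.

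The promoters of the Sprr genes are shown because AP-1, the dimer of Jun and Fos proteins that acts downstream of the DLK and JNK kinases, is an established regulator of Sprr transcription in keratinocytes. RefSeq (GRCm38.p6) gave the 250 bases before the start of 6 of the 7 genes, Sprr2g being the exception. Capitals mark the AP-1 motif TGANTCA, the motif TGATGNAA that C/EBP-ATF dimers can bind and the TATA motif TATAAA, searched on both strands with no overlap between the matches. The sequences of the 3 neighbours Sprr1b, Sprr3 and Sprr1a and of Sprr2k, written 5′ to 3′ on each gene's own strand, were as follows.
Sprr1a, chr3:92485882-92486131, minus strand: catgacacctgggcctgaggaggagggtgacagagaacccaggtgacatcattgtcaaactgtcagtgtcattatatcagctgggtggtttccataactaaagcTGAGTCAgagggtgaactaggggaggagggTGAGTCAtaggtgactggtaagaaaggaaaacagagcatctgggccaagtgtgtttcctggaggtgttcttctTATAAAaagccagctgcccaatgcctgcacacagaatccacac
Sprr1b, chr3:92438780-92439029, minus strand: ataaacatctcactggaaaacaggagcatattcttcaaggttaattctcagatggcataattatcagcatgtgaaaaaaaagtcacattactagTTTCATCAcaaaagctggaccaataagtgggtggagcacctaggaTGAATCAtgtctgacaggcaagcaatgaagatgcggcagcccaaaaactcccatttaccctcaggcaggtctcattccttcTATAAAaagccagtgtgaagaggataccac
Sprr3, chr3:92458721-92458970, minus strand: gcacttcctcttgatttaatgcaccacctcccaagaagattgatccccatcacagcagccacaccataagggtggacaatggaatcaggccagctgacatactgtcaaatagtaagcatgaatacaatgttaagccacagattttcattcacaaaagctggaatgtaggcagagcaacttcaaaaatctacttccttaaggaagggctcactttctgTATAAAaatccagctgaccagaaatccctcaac
Sprr2k, chr3:92432332-92432581, plus strand: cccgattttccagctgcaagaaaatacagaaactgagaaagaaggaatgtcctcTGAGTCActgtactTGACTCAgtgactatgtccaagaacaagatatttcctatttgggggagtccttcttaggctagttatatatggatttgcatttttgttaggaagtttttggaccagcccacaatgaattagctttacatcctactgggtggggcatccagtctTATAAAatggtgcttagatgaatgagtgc

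TATAAA was found in all 6 windows, against 12.4% of 32851 windows of the same length, and TGANTCA in 5 of 6, against 6.75%. Sprr1a held 2 AP-1 matches, starting 146 and 116 bases before the transcription start, and Sprr2k also held 2, at 196 and 182 bases. Sprr1b had 1 at 111 bases, Sprr2f 1 at 197 and Sprr2h 1 at 198, while Sprr3 had none in this window. TGATGNAA was found in Sprr1b alone, at 156 bases, against 3.45% of windows. Neither the STAT motif TTCNNNGAA (7.02% of windows) nor the cAMP response element TGACGTCA (1.55%) occurred in any of the 6. AP-1 matches were therefore present in Sprr1a, which rose after crush in Cre-negative retinas, in Sprr1b, which did not pass the test, and in Sprr2f, Sprr2h and Sprr2k, which did not pass the filter on dim probes.

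Among 20 tested genes of AP-1, of the gp130 cytokine pathway and of epithelial factors known to act on Sprr genes, 4 rose after crush in Cre-positive retinas (median 0.09, against 0.667% of all genes rising) and 7 in Cre-negative retinas (median 0.24, against 1.34%). The cytokine receptor gene Osmr rose by 0.83 in Cre-positive (SE 0.10, adjusted p 3e-04) and 1.22 in Cre-negative retinas (SE 0.12, adjusted p 4.4e-06). Stat3, which carries gp130 signals to the nucleus, rose by 0.67 in Cre-positive (SE 0.13, adjusted p 0.021) and 0.98 in Cre-negative retinas (SE 0.16, adjusted p 0.0014). Fosl2, a Fos-family subunit of AP-1, rose by 0.83 in Cre-negative retinas (SE 0.13, adjusted p 0.0012). None of the 20 passed the test of the difference between the responses (median -0.29), against 0.418% of all genes, so a count of 0 among 20 is near the background, while 6 of the 20 had an unadjusted limma p under 0.05. In crushed retinas Maff, a small Maf factor, and Fosl2 were lower in Cre-positive than in Cre-negative mice, with differences of -0.38 (adjusted p 0.049) and -0.53 (adjusted p 0.05). Without Cre-positive uncrushed replicate 4 the count in Cre-positive retinas was 2 of 20, and neither Maff nor Fosl2 passed in the Cre effect.

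Among tested genes with a symbol, those most like Sprr1a across the 17 arrays, by Pearson's r, were Camk1 (0.978), Chac1 (0.968), Phgdh (0.967), Arhgef3 (0.949) and Gdf15 (0.947). Chac1, an enzyme that breaks down glutathione, had a crush response of 0.49 in Cre-positive (SE 0.11, adjusted p 0.054) and 2.51 in Cre-negative retinas (SE 0.14, adjusted p 1.6e-09). For Camk1, a calmodulin-dependent kinase, the responses were 0.00 in Cre-positive (SE 0.05) and 0.54 in Cre-negative retinas (SE 0.06). For Phgdh, the first enzyme of serine synthesis, they were 0.05 (SE 0.05) in Cre-positive and 0.70 (SE 0.06) in Cre-negative retinas, and for Gdf15, a stress-induced cytokine, 0.13 (SE 0.06) in Cre-positive and 1.18 (SE 0.07) in Cre-negative retinas. The genes with a symbol most like Sprr2g were Gm13889 (0.984), Srxn1 (0.969), Colec10 (0.965), Crabp2 (0.961) and Fibin (0.961). Colec10, a collectin, rose by 0.34 in Cre-positive (SE 0.07, adjusted p 0.038) and 2.21 in Cre-negative retinas (SE 0.09, adjusted p 3.3e-11), and Srxn1, which restores oxidised peroxiredoxins, gave 0.14 (SE 0.07) in Cre-positive and 1.24 (SE 0.08) in Cre-negative retinas. Sprr1a and Sprr2g correlated at 0.905, and Sprr2g stood 30th by likeness to Sprr1a among all 25355 other genes tested, with or without a symbol. All these coefficients share the same arrays and the same groups and describe them only.

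Across the series, 68.0 to 76.2% of probes were well above background in Cy5 on an array, and 0 spots were saturated. Precision is limited by how many arrays each group has. The Cre effect on Map3k12, the targeted gene, was -0.47 in crushed (adjusted p 0.06) and -0.43 in uncrushed retinas (adjusted p 0.88), with log2 ratios of 1.77 to 2.34 on Cre-positive and 2.21 to 2.61 on Cre-negative arrays. The place of this probe relative to the deleted part is not given in the sources used here, so it is no check of the deletion. For Esr1, the receptor gene from which Cre-ERT takes its hormone-binding part, the brightest of 3 probes was higher in Cre-positive mice by 3.71 in crushed (adjusted p 3.1e-10) and 3.05 in uncrushed retinas (adjusted p 6e-09). On no Cre-negative array was this probe well above background, so these sizes were measured against a level close to background. The same probe was higher in crushed than in uncrushed retinas of Cre-positive mice by 0.72 (adjusted p 0.024), and in Cre-negative mice the difference was 0.06 (adjusted p 0.93). Another Esr1 probe averaged -0.35 in Cre-positive and -0.21 in Cre-negative crushed retinas, and -0.34 and -0.32 in uncrushed ones. The remaining probe averaged -0.04 in both crushed groups, and -0.01 in Cre-positive and -0.15 in Cre-negative uncrushed retinas. Rod and cone markers, which define the retina, were well above background for 8 of 8 genes on every array.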

How the data were processed

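The deposited scanner files hold, for each of 18 arrays (17 with agreed labels), median spot and local background intensity values in scanner units with no normalization, and processed signals, on the same intensity scale after the background subtraction and dye normalization of Agilent Feature Extraction 10.7.3.1, per the file headers. The deposited log10 ratio is of processed Cy5 over Cy3. The authors' deposited value table holds log2 ratios whose centring is not stated, with column medians of 0.015 to 0.024, and its direction and scale were read from its correlation (0.999 to 1) with the log2 ratios computed here. limma is named in the submitters' processing notes.

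Here the median intensities (the files hold no mean signal) were corrected with normexp (offset 50) and loess in limma 3.58.1 under R 4.3.3. Of 39429 probes, 26581 had 1 of 20144 symbols through their accession and 12848 had none. Each gene took its probe of highest mean intensity, and probes well above background in Cy5 on fewer than 3 of the 17 arrays were left out, which left 25356 genes (16775 with a symbol). lmFit and eBayes fitted 4 group means without a replicate block, with Benjamini-Hochberg adjusted p-values (threshold 0.05), two-sided. In simulated data for the Cre-negative crush response over 25356 genes, the fit recovered 109 of 113 genes changed by 1 and 87 of 87 changed by 2 on the log2 scale, with 8 false calls. The simulated noise was normal and independent between genes and arrays. It held no outliers and no deviation shared by many genes of an array, so these counts do not cover such cases. Slide and scan coincide.

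Genes and lists were chosen with earlier results of these data known. Named were the 7 genes, other Sprr symbols, Krt12, Map3k12, Esr1, up to 4 genes per list with the smallest adjusted p, and the 5 genes with a symbol most correlated with Sprr1a and with Sprr2g. Lor and Krt13 were named after their values were seen. In the other lists no gene passed in any contrast among 5 tested genes of cornea stroma and sclera, 6 of lens, 9 of iris, ciliary body and pigment epithelium and 8 of rods and cones. At most 2.15% of all genes were called in a contrast, so counts of 0 in such short lists are near that share. Among 8 of Mueller glia and astrocytes Vim and Gfap rose after crush in both genotypes and Glul fell in Cre-positive retinas. Without Cre-positive uncrushed replicate 4 Glul was not called (adjusted p 0.12). Without replicates 4 and 2 neither Glul (0.38) nor Gfap (0.06) was called in Cre-positive retinas.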

Additional observations from a re-analysis of the deposited data

Results flagged for a closer look

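In 24 groups of 4 or more arrays, 1 array each time stood apart from its group by more than Dixon's 95% criterion allows in 4 cases, where chance alone marks about 1 group in 20. Sprr1a was -2.02 and Sprr1b -0.08 on Cre-positive uncrushed replicate 4, the array with the highest Krt12 value (5.54). Sprr2g was -2.19 on Cre-positive uncrushed replicate 1, where its Cy5 signal was not well above background. Krt12 was 2.09 on Cre-positive crushed replicate 4.

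The crush responses of 2 genes differed between genotypes by the test of the difference itself. For Sprr1a the difference, Cre-positive minus Cre-negative, was -2.21 (adjusted p 0.00013), and for Sprr2g it was -1.58 (adjusted p 1.3e-07).

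The Cre-negative array whose labels disagree on the crush entered no comparison. It read -0.34 for Sprr1a and -0.56 for Sprr2g, above all 4 Cre-negative uncrushed arrays (up to -3.05 and -2.30), with processed Cy5 signals of 2546 and 463.4 intensity units. Its Krt12 value was 0.24. Its mean over the ganglion cell list was 2.32, against 2.37 to 2.46 on Cre-negative crushed and 3.15 to 3.27 on Cre-negative uncrushed arrays. For the axon regeneration list it was 0.83, against 0.73 to 0.92 on crushed and 0.10 to 0.20 on uncrushed arrays of that genotype. Which of its labels is right was not tested.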

How the results depend on the processing

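The crush response of Sprr1a in Cre-positive retinas kept its direction and stayed short of the threshold under all 33 alternatives (0.08 to 0.40), and its response in Cre-negative retinas, the difference between the responses and the Cre effect in crushed retinas kept theirs under 32 of 33. The exception was to count the array of disagreeing labels as uncrushed, which gave 1.80 (adjusted p 0.13), -1.62 (adjusted p 0.58) and -1.73 (adjusted p 0.12) for these, and turned the Cre effect in uncrushed retinas to -0.11. The same placement gave -1.21 for the difference of Sprr2g (adjusted p 0.53). Leaving out each array in turn gave, for Sprr1a, 0.08 to 0.37 for the Cre-positive response, 2.31 to 2.49 for the Cre-negative response, -2.32 to -2.01 for the difference, -1.84 to -1.64 for the Cre effect in crushed and 0.29 to 0.57 in uncrushed retinas, with no call changed. Sign changes among values that never passed were these. For Sprr1b the Cre-positive response was 0.01 on Cy5 alone, 0.04 with Krt12 and 0.10 with the cornea list as covariate, 0.09 without Cre-positive uncrushed replicate 4 and 0.08 without the 2 arrays highest in Krt12, an alternative chosen after seeing the data. Its Cre-negative response was 0 and its Cre effect in crushed retinas 0.05 without background subtraction, its difference 0.03 with the cornea list, and its Cre effect in uncrushed retinas -0.02, -0.09, -0.04 and -0.03 with Krt12, the cornea list, without replicate 4 and without both arrays. Leaving out each array gave -0.15 to 0.09 for its Cre-positive response and -0.04 to 0.20 for its Cre effect in uncrushed retinas. For Sprr2g the last was 0.02 with Krt12, 0 with the cornea list and 0.02 without both arrays. The relation to Krt12 was -0.15 for Sprr1b, -0.21 for Sprr2h and 0 for Sprr2k without the 2 farthest arrays, and -0.09 for Sprr2f and 0.13 for Sprr3 on processed signals. Counts of genes called over all alternatives were 10 to 230 for the Cre-positive response (191 as reported), 73 to 1178 for the Cre-negative response (545), 0 to 156 for the difference (106), 115 to 519 for the Cre effect in crushed (299) and 1 to 3 in uncrushed retinas (3). The count of 0 came with the array of disagreeing labels as uncrushed. The cause of these changes was not tested. The filter on every array of a group left no value for Sprr1b. No paired analysis was possible because the labels carry no replicate numbers that groups share. Signal over background limits what can be said of Sprr1b, Sprr2f, Sprr2h, Sprr2k and Sprr3.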
